A study of Mus musculus with 8 samples.

Results

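The genes described here encode the oxidative phosphorylation system of the inner mitochondrial membrane. They were taken by symbol: every gene named Nduf, Uqcr, Atp5 or Cox4 to Cox8, together with Sdha, Sdhb, Sdhc, Sdhd, Cyc1 and Cycs, each read from its brightest probe set, the group of probes on the array that reports a transcript. The rule found 86 of the 12394 genes with a probe set of their own. Of these, 34 were complex I subunits, 5 were complex I assembly factors, 4 were the subunits of complex II, 9 belonged to complex III, 16 to complex IV and 17 to ATP synthase, and 1 was the carrier cytochrome c. The groups follow the symbols, so Ndufa4 is among the 34 although it is now placed in complex IV. Symbols that share every probe set with another gene, Ndufa11, Ndufb4 and Ndufs6 among them, were not analysed.

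RNA from CD4-CD8- cells of female C57BL/6 mice aged 6 to 8 weeks was amplified and hybridised to 8 mouse expression arrays, 2 in each of 4 groups. The groups were thymus emigrants of mice given TCDD, thymus emigrants of mice given corn oil, thymocytes of mice given TCDD and thymocytes of mice given corn oil. TCDD (2,3,7,8-tetrachlorodibenzo-p-dioxin) is a ligand of the aryl hydrocarbon receptor, and was injected into the peritoneum at 10 µg/kg in corn oil. FITC, a fluorescent dye, was placed in the thymus 5 days later to mark its cells. Another 24 h on, CD4-CD8- cells were sorted from the thymus (thymocytes) and from the spleen (thymus emigrants). No transgene or deletion is named for the mice. Nothing in the labels ties an array to a single mouse or to a pool, so p-values here measure the spread between arrays, which may be technical.

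The labels disagree in places. The groups follow the titles. Against them, TCDD stands in the treatment entry of emigrants oil 1, Dioxane 2 in that of emigrants oil 2, and only oil in the descriptions of the TCDD thymocytes. Cyp1b1, a classical target of the aryl hydrocarbon receptor, read 6.87 and 8.36 log2 units in TCDD emigrants, against 4.69 and 6.25 in oil emigrants, and 8.46 and 9.59 in TCDD thymocytes, against 4.62 and 5.04 in oil thymocytes. In both cell sources the TCDD arrays of the titles lay above the oil arrays. Rag1, the recombinase of developing lymphocytes, read 5.10 and 3.75 in TCDD emigrants and 3.89 and 9.81 in oil emigrants, against 9.33 to 10.21 in the thymocyte arrays, so emigrants oil 2 lay within the thymocyte range for this gene. Ptcra, the pre-T-cell receptor chain, read 5.08 to 7.00 in emigrants, against 8.83 to 9.45 in thymocytes, with the highest emigrant value again on emigrants oil 2. The 11 T-lineage genes averaged 8.00 and 7.72 in TCDD emigrants and 8.00 and 8.58 in oil emigrants, against 9.29 and 9.17 in TCDD thymocytes and 9.18 and 8.86 in oil thymocytes. Cd3e read 8.30 to 8.91 in emigrants, against 8.09 to 8.34 in thymocytes, whereas Notch1 read 6.85 to 7.98 in emigrants, against 9.40 to 9.65 in thymocytes, and Thy1 read 8.45 to 8.84 in emigrants, against 9.25 to 9.41 in thymocytes. S100a8, a granulocyte gene, ranged from 5.56 on emigrants TCDD 2 to 10.61 on emigrants TCDD 1, and was 8.43 to 9.98 in thymocytes.

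Oxidative phosphorylation couples electron transport to ATP synthesis. Complex I (NADH dehydrogenase) and complex II (succinate dehydrogenase) pass electrons through ubiquinone to complex III (cytochrome bc1), cytochrome c carries them to complex IV (cytochrome c oxidase), and ATP synthase uses the proton gradient that results. Complexes I, III and IV and ATP synthase each have a catalytic core with counterparts in bacteria. Around it lies a shell of supernumerary subunits that stabilise or regulate the core. The subunits of complex II were all counted as core here. Proliferating thymocytes and resting T cells are known to differ in mitochondrial activity. Most subunits are nuclear genes, and several carry promoter elements for NRF1, for ETS factors such as GABP and for YY1.

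Promoters are shown for the 6 genes with the smallest p between emigrants and thymocytes among those with a RefSeq promoter, Atp5b, Atp5g1, Atp5pb, Ndufb5, Uqcrc1 and Cycs, all lower in emigrants without overlap of the arrays. Atp5g2 and Atp5g3 are added because they encode the same c subunit of ATP synthase as Atp5g1 and their arrays overlapped. The sequences are the 250 bases before the transcript start in RefSeq, build GRCm38.p6, written 5′ to 3′ on the coding strand, with matches to the NRF1 core GCATGCGC in capitals. Atp5b lies at chr10:128083057-128083306, plus strand, Atp5g1 at chr11:96075632-96075881, minus strand, Atp5pb at chr3:105959264-105959513, minus strand and Ndufb5 at chr3:32736813-32737062, plus strand. Uqcrc1 lies at chr9:108936398-108936647, plus strand, Cycs at chr6:50566570-50566819, minus strand, Atp5g2 at chr15:102671048-102671297, minus strand and Atp5g3 at chr2:73911327-73911576, minus strand.
Atp5b: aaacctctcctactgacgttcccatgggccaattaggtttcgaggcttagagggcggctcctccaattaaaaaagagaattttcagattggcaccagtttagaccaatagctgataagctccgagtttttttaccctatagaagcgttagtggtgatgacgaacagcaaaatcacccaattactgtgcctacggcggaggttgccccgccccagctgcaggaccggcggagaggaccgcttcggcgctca
Atp5g1: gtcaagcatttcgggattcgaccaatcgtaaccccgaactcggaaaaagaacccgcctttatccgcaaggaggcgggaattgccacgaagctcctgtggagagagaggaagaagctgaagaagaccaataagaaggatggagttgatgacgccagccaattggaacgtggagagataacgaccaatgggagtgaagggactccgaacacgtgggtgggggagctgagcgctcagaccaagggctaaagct
Atp5pb: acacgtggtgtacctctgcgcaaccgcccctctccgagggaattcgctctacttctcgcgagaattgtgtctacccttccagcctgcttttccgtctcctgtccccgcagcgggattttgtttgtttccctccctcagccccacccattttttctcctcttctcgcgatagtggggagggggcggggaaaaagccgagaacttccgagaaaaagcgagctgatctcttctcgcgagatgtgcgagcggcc
Ndufb5: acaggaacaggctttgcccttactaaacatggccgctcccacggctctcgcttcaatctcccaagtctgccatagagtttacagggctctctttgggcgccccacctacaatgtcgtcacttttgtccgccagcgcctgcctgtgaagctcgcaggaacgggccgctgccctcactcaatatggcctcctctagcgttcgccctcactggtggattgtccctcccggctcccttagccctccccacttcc
Uqcrc1: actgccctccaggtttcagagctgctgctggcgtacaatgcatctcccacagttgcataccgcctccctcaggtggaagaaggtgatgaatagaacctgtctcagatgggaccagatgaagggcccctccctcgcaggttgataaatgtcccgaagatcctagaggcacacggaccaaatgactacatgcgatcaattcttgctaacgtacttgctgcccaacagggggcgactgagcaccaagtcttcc
Cycs: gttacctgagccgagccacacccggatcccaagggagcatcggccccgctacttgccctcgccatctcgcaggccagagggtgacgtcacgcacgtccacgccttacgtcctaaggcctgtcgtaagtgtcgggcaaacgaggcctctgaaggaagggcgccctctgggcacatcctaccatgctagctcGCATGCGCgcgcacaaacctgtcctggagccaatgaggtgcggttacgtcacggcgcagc
Atp5g2: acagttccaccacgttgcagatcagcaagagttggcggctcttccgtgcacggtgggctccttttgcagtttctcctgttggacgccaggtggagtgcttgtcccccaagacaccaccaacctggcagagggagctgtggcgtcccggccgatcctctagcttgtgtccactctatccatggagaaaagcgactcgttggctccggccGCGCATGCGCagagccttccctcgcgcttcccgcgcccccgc
Atp5g3: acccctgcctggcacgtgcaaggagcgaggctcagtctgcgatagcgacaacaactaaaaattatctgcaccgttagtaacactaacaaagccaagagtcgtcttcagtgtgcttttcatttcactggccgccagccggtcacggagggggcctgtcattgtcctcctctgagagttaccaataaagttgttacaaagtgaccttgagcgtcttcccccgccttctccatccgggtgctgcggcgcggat

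The NRF1 core begins 60 bases before the start in Cycs. In Atp5g2 it occurs on both strands, from 42 and 40 bases before the start, and these matches overlap. It is not in the windows printed for Atp5b, Atp5g1, Atp5pb, Ndufb5, Uqcrc1 and Atp5g3. Uqcrc1 does hold 2 matches in the wider window described next, beyond its printed bases. A RefSeq promoter was matched for 71 of the 86 genes. In windows from 250 bases before to 50 bases after the start, searched on both strands, 12 of the 71 (16.9%) held GCATGCGC, against 2.8% of 27025 mouse promoters. The ETS core CCGGAAG was in 17 (23.94%), against 9.12%, and the YY1 core AAGATGGC in 8 (11.27%), against 2.88%. Between emigrants and thymocytes the median log2 difference, described below gene by gene, was -0.22 for the 12 genes with the NRF1 core and -0.18 for the 59 without it, and -0.10 for the 17 with the ETS core and -0.22 for the 54 without. These are descriptions of letters, not of binding. Nrf1 itself read 7.01 in emigrants and 7.01 in thymocytes.

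The array values were log2 RMA values, in which 1 unit is a doubling of probe signal. They ran from 2.54 to 13.94 over all probe sets, with array medians between 4.81 and 4.91. Of the 86 genes, 79 lay above the median of their array on all 8 arrays. Genes below it on all 8 were Cox6b2, Cox7a1 and Cox8b, the testis isoform of subunit 6b and the muscle isoforms of subunits 7a and 8. Cox7a1 read 2.99 and 3.36 in TCDD emigrants and 3.14 and 3.11 in oil emigrants, against 3.23 and 3.23 in TCDD thymocytes and 3.39 and 3.30 in oil thymocytes, close to the floor of the array everywhere. Cox6a2, the muscle form of subunit 6a, and Cox4i2, the lung and hypoxia form of subunit 4, read 4.85 to 5.20 and 4.55 to 5.03 over the 8 arrays, near the array medians. Their ubiquitous counterparts were well above them: Cox6a1 read 10.36 to 11.17 and Cox4i1 8.65 to 10.52.

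**Figure D1:**
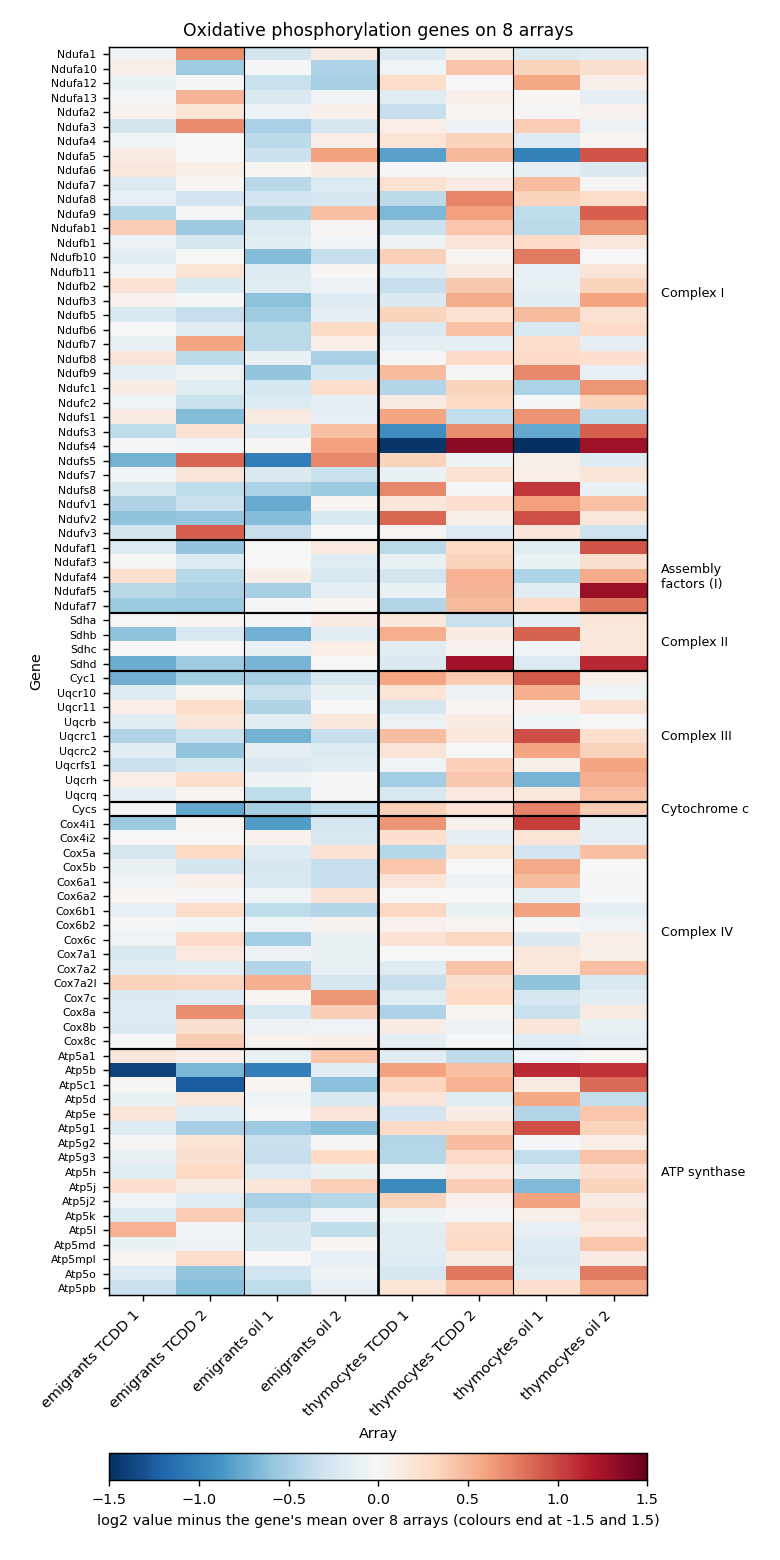
Log2 value of each of the 86 genes (rows, grouped by complex) on each of the 8 arrays (columns), as the difference from the gene's own mean. Blue is below and red above that mean, and the 4 emigrant columns hold more blue than the 4 thymocyte columns; Ndufs4 shows the widest gap between thymocyte arrays of the same treatment.

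The median difference of these genes was larger in size between the cell sources (-0.18) than for TCDD against oil in thymocytes (-0.09) or emigrants (0.07). The count lower by mean was 63 of 86 both between the sources and for TCDD in thymocytes. The sources were compared with 4 arrays against 4, and TCDD with 2 against 2. Over all genes, 8.33% were lower at an unadjusted limma p under 0.05 between the sources and 0.629% for TCDD in thymocytes. Differences between array numbers are described further on. With oil and TCDD weighted equally, 63 of the 86 genes had a lower mean in emigrants than in thymocytes, where 45.2% of all 12394 genes did. The median log2 difference of the 86 was -0.18, against 0.02 for all genes. In 19 of the 86 (22.1%) all 4 emigrant arrays lay below all 4 thymocyte arrays, against 6.04% of all genes and 9.94% of the 6197 brighter genes, to which 80 of the 86 belong. The opposite order was found in 2 of them, the small complex I subunit Ndufa6 and the testis isoform Cox8c, against 6.87% of all genes. In bulk samples, fewer cells of a type and less RNA per cell cannot be told apart.

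No single gene of the 86 passed an adjusted p of 0.05 (limma, moderated over 12394 genes, Benjamini-Hochberg). Over all genes 18 did (0.145%), 10 of them lower (0.0807%) and 8 higher (0.0645%). At an unadjusted p under 0.05, 24 of the 86 were lower in emigrants and none was higher, against 8.33% lower and 7.26% higher over all genes, and 14.2% lower among the brighter ones. The median of the 86 on each array, after subtraction of each gene's mean, was -0.10 and -0.02 in TCDD emigrants and -0.23 and -0.09 in oil emigrants, against -0.08 and 0.18 in TCDD thymocytes and 0.05 and 0.18 in oil thymocytes. The SD of this median between arrays of a group was 0.12, and thymocytes TCDD 1 lay among the emigrant arrays. With each array left out, 53 to 70 of the 86 had a lower emigrant mean. The lowest count was without thymocytes TCDD 2 (median difference -0.15, 46.6% of all genes lower by mean). The highest was without emigrants oil 2 (median difference -0.24, 44.0% of all genes lower by mean). Without both emigrant arrays numbered 2, a choice made after the values were seen, 71 had a lower mean and the median was -0.26; 32 were then lower without overlap (15.0% of all genes) and 3 higher without overlap (17.8% of all genes).

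**Figure D2:**
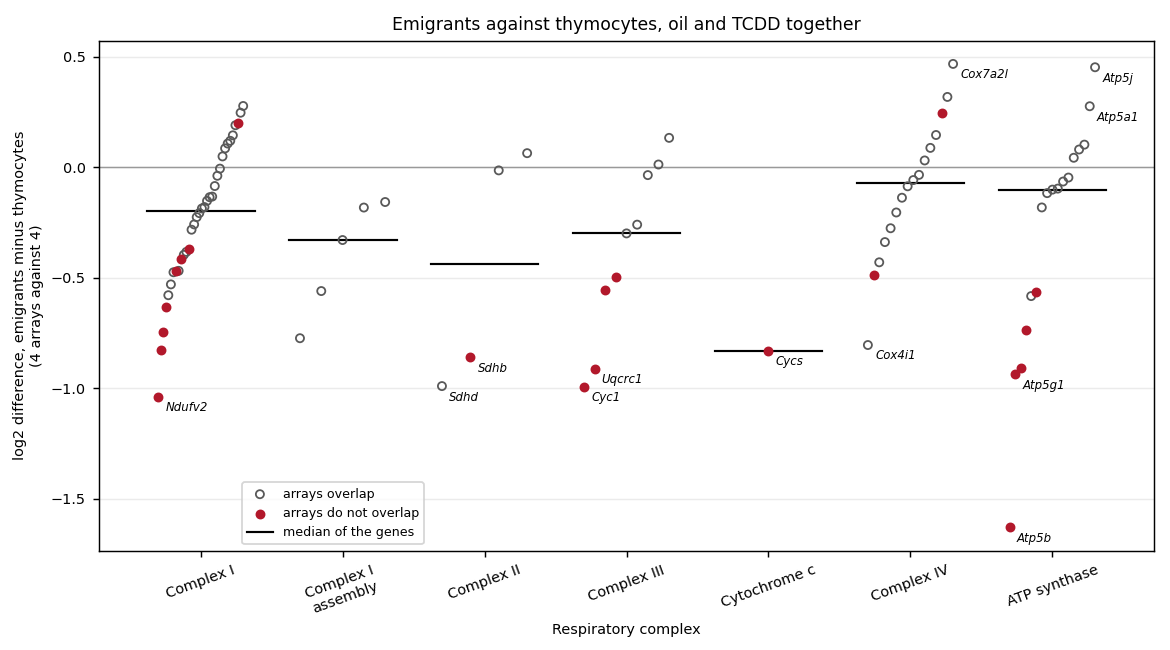
Log2 difference of each gene, emigrants minus thymocytes with oil and TCDD weighted equally (4 arrays against 4), by respiratory complex. Filled points are genes whose emigrant and thymocyte arrays do not overlap, bars are medians; Atp5b at -1.63 is the lowest and Cox7a2l at 0.47 the highest.

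Atp5b, the catalytic beta subunit of the F1 head of ATP synthase, had the lowest emigrant level relative to thymocytes of all 86. It read 8.12 and 8.82 in TCDD emigrants and 8.48 and 9.34 in oil emigrants, against 10.11 and 9.95 in TCDD thymocytes and 10.63 and 10.59 in oil thymocytes. All emigrant arrays lay below all thymocyte arrays. The mean difference was -1.63 (SE 0.24), a level 3.09-fold lower in emigrants, with a limma adjusted p of 0.0564. It was -1.84 without emigrants oil 2.

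The rest of the ATP synthase core divided. The gamma subunit Atp5c1, the central rotor stalk, read 10.46 and 9.19 in TCDD emigrants and 10.48 and 9.82 in oil emigrants, against 10.76 and 10.97 in TCDD thymocytes and 10.57 and 11.29 in oil thymocytes. It was lower in emigrants without overlap, by a narrow margin, and differed by -0.91 (SE 0.33, limma adjusted p = 0.266). Atp5pb, subunit b of the peripheral stalk, read 9.73 to 10.25 in emigrants, against 10.59 to 10.94 in thymocytes, a difference of -0.74 (SE 0.14, limma adjusted p = 0.0882). Its other probe set gave -0.74 as well. The alpha subunit Atp5a1, which alternates with beta in the head, did not follow: its brightest probe set gave 0.28, and another bright probe set of the same gene gave -0.63, so its direction depends on the probes read. The delta subunit Atp5d differed by -0.12 and the oligomycin-sensitivity subunit Atp5o by -0.58, with overlapping arrays in both.

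The c subunit, of which the rotor ring is built, comes from 3 genes that encode the same mature protein and differ in their import sequences. Atp5g1 read 7.42 and 7.11 in TCDD emigrants and 7.07 and 6.98 in oil emigrants, against 7.91 and 7.90 in TCDD thymocytes and 8.58 and 7.95 in oil thymocytes. Every emigrant array was below every thymocyte array, with a difference of -0.94 (SE 0.17, limma adjusted p = 0.0732). Atp5g2 read 8.39 and 8.58 in TCDD emigrants and 8.05 and 8.40 in oil emigrants, against 7.93 and 8.84 in TCDD thymocytes and 8.35 and 8.48 in oil thymocytes, with overlapping arrays and a difference of -0.05. Atp5g3 read 11.34 to 11.98 in emigrants, against 11.26 to 12.11 in thymocytes, with a difference of 0.04. The genes were not tested against each other. Among the supernumerary subunits, Atp5j2 was lower without overlap (-0.56, limma adjusted p = 0.145). Atp5j, coupling factor 6, had the highest emigrant level relative to thymocytes within ATP synthase (0.45), with overlapping arrays. In all, 12 of the 17 ATP synthase genes had a lower emigrant mean and 5 were lower without overlap, all of them named above.

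**Figure D3:**
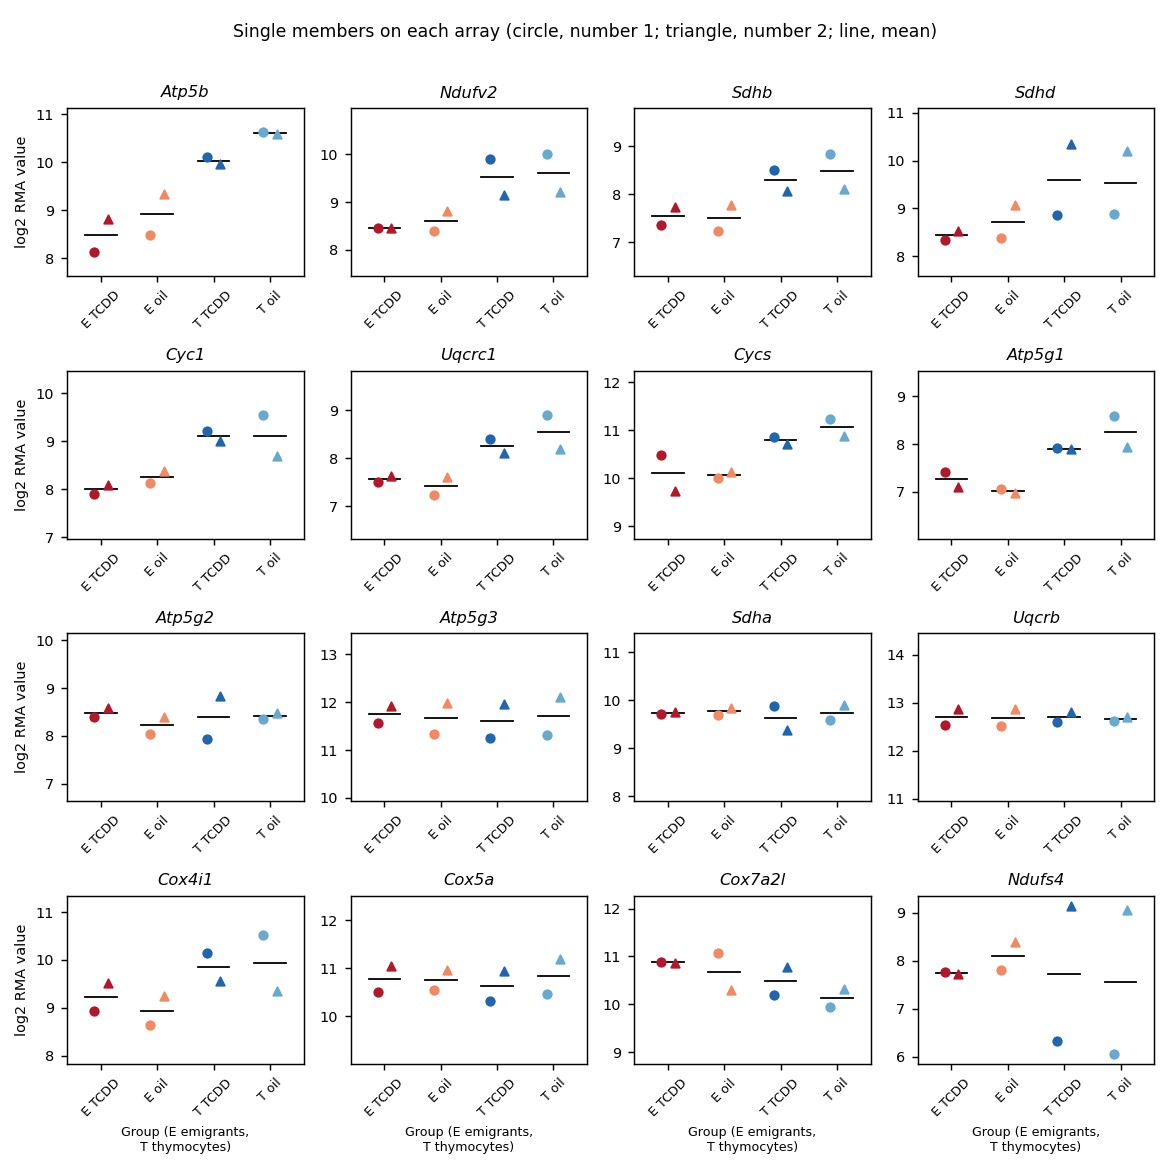
Log2 RMA value of 16 genes on each array, by group from left to right (emigrants TCDD, emigrants oil, thymocytes TCDD, thymocytes oil). Circles are arrays numbered 1, triangles arrays numbered 2 and lines group means; Atp5b, Ndufv2, Sdhb, Cyc1, Uqcrc1, Cycs and Atp5g1 lie lower in emigrants without overlap, and Ndufs4 splits the thymocyte arrays by number.

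Complex I had 25 of its 34 subunit genes lower in emigrants by mean and 7 lower without overlap, with a median difference of -0.20. Ndufv1, Ndufv2 and Ndufs1 form the arm that takes electrons from NADH. Ndufv2 read 8.45 and 8.46 in TCDD emigrants and 8.40 and 8.80 in oil emigrants, against 9.91 and 9.14 in TCDD thymocytes and 10.01 and 9.22 in oil thymocytes. Its arrays did not overlap, the difference was -1.04 (SE 0.25, limma adjusted p = 0.128), and its other probe sets gave -1.49 and -0.91. Ndufv1, which binds NADH, read 7.86 to 8.66 in emigrants, against 8.80 to 9.23 in thymocytes, and differed by -0.75 (limma adjusted p = 0.134), with -0.74 and -0.70 on its other probe sets. Ndufs1 differed by -0.26, with overlap.

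Ndufs8, an iron-sulphur subunit on the path to ubiquinone, was lower in emigrants without overlap (-0.83), and all 6 of its probe sets gave a negative difference, from -1.25 to -0.32. Ndufs7 and Ndufs3, neighbours on that path, differed by -0.21 and 0.05. The supernumerary subunits lower without overlap were Ndufb5 (-0.63, limma adjusted p = 0.0971), Ndufa12 (-0.47), Ndufa7 (-0.42) and Ndufc2 (-0.37). Ndufb5 read 8.18 and 8.09 in TCDD emigrants and 7.90 and 8.28 in oil emigrants, against 8.76 and 8.65 in TCDD thymocytes and 8.90 and 8.65 in oil thymocytes. The 5 complex I assembly factors all had a lower emigrant mean, with none free of overlap and a median of -0.33; Ndufaf5 was lowest (-0.77).

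Complex II showed a split among its 4 subunits. Sdha, the flavoprotein that oxidises succinate, read 9.72 and 9.76 in TCDD emigrants and 9.69 and 9.85 in oil emigrants, against 9.88 and 9.39 in TCDD thymocytes and 9.58 and 9.91 in oil thymocytes, a difference of 0.06. Sdhb, its iron-sulphur partner, read 7.35 and 7.73 in TCDD emigrants and 7.24 and 7.78 in oil emigrants, against 8.50 and 8.08 in TCDD thymocytes and 8.85 and 8.12 in oil thymocytes. The arrays of Sdhb did not overlap and those of Sdha did, and Sdhb differed by -0.86 (SE 0.23, limma adjusted p = 0.156). Of the membrane anchors, Sdhd averaged 8.58 in emigrants and 9.57 in thymocytes (difference -0.99), but its thymocyte arrays numbered 1 read 8.86 and 8.88 and those numbered 2 read 10.34 and 10.21, so its arrays overlapped. Sdhc differed by -0.01 on its brightest probe set and by -0.45 on a dimmer one.

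In complex III, 7 of 9 genes had a lower emigrant mean and 4 were lower without overlap: Cyc1, Uqcrc1, Uqcrc2 and Uqcrfs1. Cyc1, cytochrome c1, which hands electrons to cytochrome c, read 7.89 and 8.10 in TCDD emigrants and 8.12 and 8.38 in oil emigrants, against 9.21 and 9.01 in TCDD thymocytes and 9.55 and 8.70 in oil thymocytes. Its difference was -0.99 (SE 0.20, limma adjusted p = 0.0975). Uqcrc1, a core protein of the matrix side, read 7.50 and 7.62 in TCDD emigrants and 7.24 and 7.60 in oil emigrants, against 8.41 and 8.11 in TCDD thymocytes and 8.91 and 8.18 in oil thymocytes, and differed by -0.91 (SE 0.19, limma adjusted p = 0.104). Uqcrc2 differed by -0.56 and Uqcrfs1, the Rieske iron-sulphur protein, by -0.50. Uqcrb, a small subunit at the ubiquinone site, read 12.51 to 12.87 in emigrants, against 12.60 to 12.81 in thymocytes, and differed by 0.01. Cytochrome c itself, Cycs, read 10.49 and 9.74 in TCDD emigrants and 10.01 and 10.14 in oil emigrants, against 10.86 and 10.71 in TCDD thymocytes and 11.24 and 10.88 in oil thymocytes. Cycs was lower without overlap (-0.83, SE 0.19, limma adjusted p = 0.120), with -0.41 and -0.94 on its other probe sets.

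Complex IV had a median of -0.07, with 10 of 16 genes lower by mean and 1, Cox5b, lower without overlap. Its 5 tissue isoforms near or below the array medians, Cox4i2, Cox6a2, Cox6b2, Cox7a1 and Cox8b, had a median of -0.06, and the other 11 genes, a division made after the values were seen, had a median of -0.20. Cox5b, a subunit on the matrix side, read 9.90 to 10.15 in emigrants, against 10.23 to 10.82 in thymocytes (difference -0.49). Cox4i1, the ubiquitous form of the largest nuclear subunit, read 8.93 and 9.53 in TCDD emigrants and 8.65 and 9.24 in oil emigrants, against 10.15 and 9.56 in TCDD thymocytes and 10.52 and 9.34 in oil thymocytes, a difference of -0.80 with overlap. Cox5a differed by 0.03 on its brightest probe set and by -0.27 and -0.25 on the others. Among the other ubiquitous subunits, Cox6a1 differed by -0.28, Cox7a2 by -0.43 and Cox8a by 0.32, all with overlap. Cox7a2l, a factor in the assembly of respiratory supercomplexes that C57BL/6 mice carry in a shortened form, was highest among all 86 at 0.47, but its other probe sets gave 0.30 and -0.15. The complexes were not tested against each other.

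When the genes were divided by role rather than by complex, a division made after the values had been seen, 17 of the 21 core subunits with bacterial counterparts had a lower emigrant mean, with a median of -0.58 and 10 without overlap. Of the 59 supernumerary subunits 40 had a lower mean, with a median of -0.13 and 8 without overlap. The 59 include all 16 complex IV genes, of which 5 lay near or below the array medians, and the 21 include none. The classes therefore also differ in complex and in signal level, and were not tested against each other. The core exceptions with means at or above thymocytes were Sdha, Ndufs3, Atp5g3 and Atp5a1.

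Each treatment was also read on its own. Under oil, 69 of the 86 genes had a lower emigrant mean, where 49.6% of all genes did, with a median of -0.26. The arrays did not overlap in 39 that were lower (19.6% of all genes, 23.2% of the brighter ones) and in 3 that were higher (19.8% of all genes). Under TCDD, 55 had a lower mean, where 42.8% of all genes did, with a median of -0.14. The arrays did not overlap in 29 that were lower (15.5% of all genes, 22.6% of the brighter ones) and in 7 that were higher (22.1% of all genes). By complex, the medians under oil were -0.25 for complex I, -0.44 for complex II, -0.51 for complex III, -0.11 for complex IV and -0.25 for ATP synthase, where 14 of 17 genes had a lower mean. Under TCDD they were -0.17 for complex I, -0.35 for complex II, -0.15 for complex III and -0.05 for complex IV. ATP synthase was at 0.02 under TCDD, with 10 of its 17 genes higher by mean, 5 lower without overlap and 1, Atp5a1, higher without overlap. Neither comparison had a gene past an adjusted p of 0.05 in limma, among the 86 or among all genes. At an unadjusted p under 0.05, 17 of the 86 were lower under oil (5.09% of all genes) and 9 under TCDD (4.45%). None was higher, where 4.48% of all genes were under oil and 3.81% under TCDD. Both comparisons rest on 2 arrays against 2. Without thymocytes TCDD 2 the median under TCDD was -0.0052, and without thymocytes TCDD 1 it was -0.22. Without emigrants oil 2 the median under oil was -0.37.

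Genes around the respiratory chain were read from lists drawn up by hand. In the citric acid cycle and pyruvate dehydrogenase list, 12 of 21 genes had a lower emigrant mean and 6 were lower without overlap, with a median of -0.51. Idh2, mitochondrial isocitrate dehydrogenase, averaged 5.77 in emigrants and 7.69 in thymocytes, a difference of -1.92 (SE 0.26, limma adjusted p = 0.0542). Mdh2, mitochondrial malate dehydrogenase, averaged 9.52 in emigrants and 10.28 in thymocytes, a difference of -0.76 with the same adjusted p. In the list of carriers and other electron donors, 18 of 19 had a lower mean (median -0.29), with Vdac1, the outer membrane channel, at -0.81 and Etfb, the electron transfer flavoprotein, at -0.47. Of the assembly factors outside the symbol rule, 16 of 22 had a lower mean, and Uqcc2, a factor for complex III, differed by -0.97. In the list for mitochondrial biogenesis and genome expression, 10 of 19 had a lower mean, with Tfb1m, a mitochondrial rRNA methyltransferase, at -0.72 and the growth regulator Myc at -0.96. No gene of these lists passed an adjusted p of 0.05.

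Other measurements were also compared between the cell sources. The 9 cell cycle genes averaged 7.65 and 7.49 in TCDD emigrants and 7.34 and 8.24 in oil emigrants, against 8.55 and 8.09 in TCDD thymocytes and 8.92 and 8.50 in oil thymocytes, and all 9 had a lower emigrant mean (median -0.89). The 5 natural killer cell genes had a higher emigrant mean in every case (median 1.64), as did the 6 macrophage genes (median 0.70), and the 4 B-cell genes had a lower one (median -1.20). Of the 11 T-lineage genes 8 had a lower emigrant mean (median -0.51), 5 of them without overlap and 1 past an adjusted p of 0.05 in limma. Of the 8 granulocyte genes 6 had a lower emigrant mean (median -0.58). Under oil all 8 were lower without overlap (median -1.38), whereas under TCDD 6 of the 8 had a higher emigrant mean (median 0.22). Their part in the levels of the 86 genes was not tested. The 3′ minus 5′ signal of control probes is a measure of RNA integrity and amplification. For actin it was 3.34 to 4.68 log2 units in emigrants, against 3.06 to 4.31 in thymocytes. For Gapdh it was 4.81 to 5.32 in emigrants, against 4.78 to 6.23 in thymocytes. The ranges of the sources overlapped for both controls.

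TCDD against oil gave no gene past an adjusted p of 0.05 in either cell source, among the 86 or among all 12394 genes (0%). At an unadjusted p under 0.05 none of the 86 differed in either source, where 0.936% of all genes were higher and 0.629% lower in thymocytes, and 0.541% higher and 0.637% lower in emigrants. In thymocytes, 63 of the 86 genes had a lower mean with TCDD, where 51.4% of all genes did, and the median difference was -0.09. The arrays did not overlap in 10 that were lower (11.4% of all genes) and in 6 that were higher (9.78% of all genes), shares near those of all genes. Between arrays of the same number the median difference was -0.14 for number 1 and -0.0053 for number 2, with 33 genes lower in both and 14 higher in both. The median was -0.19 without thymocytes TCDD 2 and 0.029 without thymocytes TCDD 1, which set a single TCDD number against both oil numbers. In the same comparison 8 of 9 cell cycle genes had a lower mean (median -0.41, 5 without overlap), as did 8 of 8 granulocyte genes (median -0.44). Their part in the levels of the 86 genes was not tested.

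Atp5b had the lowest thymocyte level with TCDD relative to oil: 10.11 and 9.95 with TCDD, against 10.63 and 10.59 with oil, without overlap (difference -0.58, SE 0.34, limma unadjusted p = 0.136). Uqcrc2 read 9.87 and 9.67 with TCDD, against 10.27 and 10.03 with oil (difference -0.38, limma unadjusted p = 0.0961). Cyc1 differed by -0.01 and Sdhb by -0.19. On the other side, Cox6c, a nuclear subunit of complex IV, read 10.71 and 10.80 with TCDD, against 10.27 and 10.60 with oil (difference 0.32), and Ndufa4, now counted as a subunit of complex IV, read 8.46 and 8.60 with TCDD, against 8.07 and 8.29 with oil (difference 0.35). Neither of these pairs of groups overlapped. None of these genes passed the adjusted threshold.

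**Figure D4:**
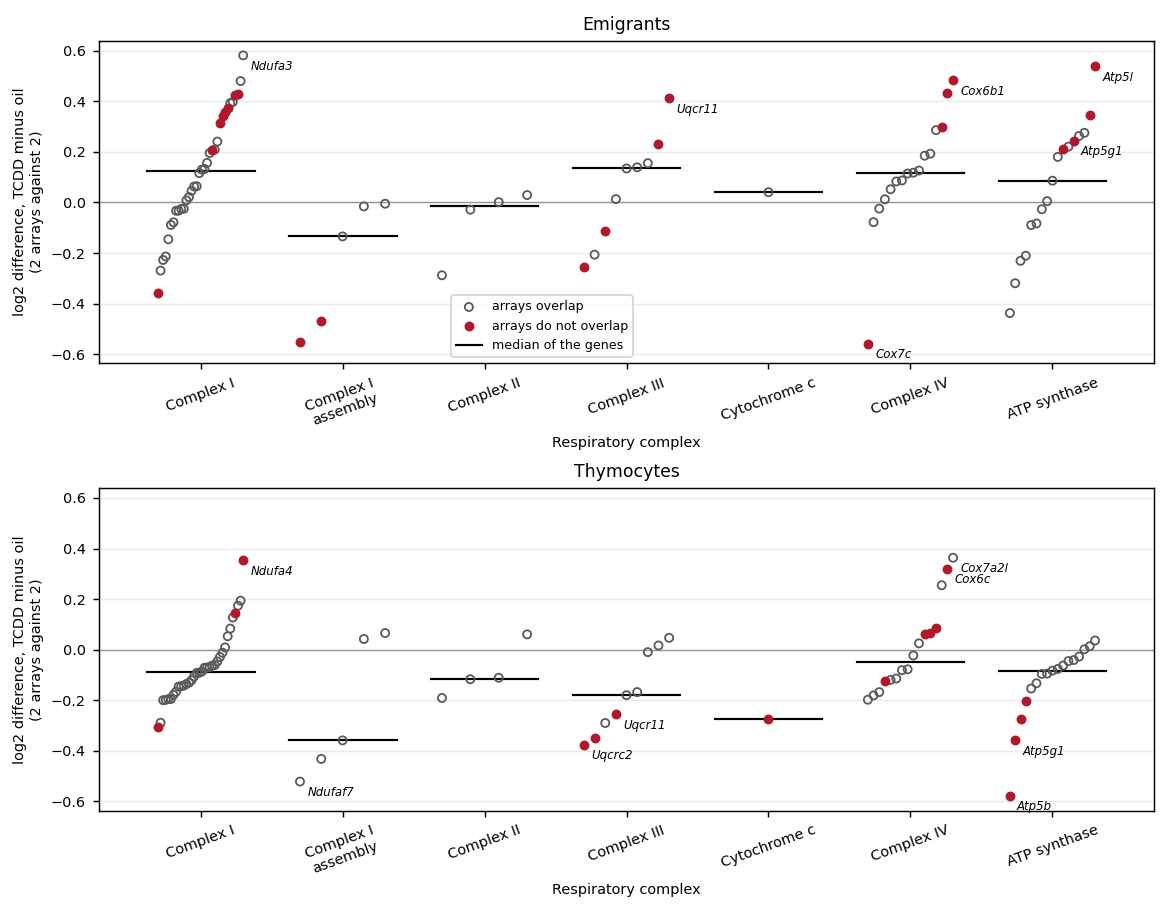
Log2 difference of each gene, TCDD minus oil, in emigrants (upper) and thymocytes (lower), by respiratory complex, with 2 arrays against 2 in each. Filled points are genes whose TCDD and oil arrays do not overlap and bars are medians; no gene passed an adjusted p of 0.05 in either panel.

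In emigrants, 55 of the 86 genes had a higher mean with TCDD, where 55.6% of all genes did, and the median difference was 0.07. Arrays did not overlap in 16 that were higher (14.6% of all genes) and in 6 that were lower (10.1% of all genes). Atp5l, subunit g of ATP synthase, read 8.08 and 7.52 with TCDD, against 7.34 and 7.18 with oil (difference 0.54, SE 0.25, limma unadjusted p = 0.0755). Cox6c read 10.44 and 10.78 with TCDD, against 9.97 and 10.38 with oil (difference 0.43), so it was higher without overlap in both cell sources. Cox7c, a small complex IV subunit whose brightest probe set was dim, read 5.51 and 5.53 with TCDD, against 5.77 and 6.39 with oil (difference -0.56, limma unadjusted p = 0.0674). Ndufa3 had the highest mean relative to oil (0.58), but read 8.90 and 9.89 with TCDD, against 8.70 and 8.93 with oil, and its arrays overlapped. Ndufaf7, an assembly methyltransferase for complex I, was lower without overlap in emigrants (-0.55) and lower with overlap in thymocytes (-0.52). In the same comparison all 8 granulocyte genes had a higher mean (median 0.91), as did all 6 erythroid genes (median 0.45) and all 6 macrophage genes (median 0.39), and their part was not tested. On single arrays the granulocyte genes averaged 8.74 and 5.86 with TCDD, against 6.48 and 6.25 with oil. Between emigrant arrays of the same number the median difference of the 86 was 0.14 for number 1 and -0.016 for number 2. The emigrant median was -0.066 when emigrants oil 1 was counted as TCDD, as its treatment entry has it, and 0.18 without emigrants oil 2.

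The difference of the TCDD effects, emigrants minus thymocytes, was tested as an interaction. No gene of the 86, or of all genes, passed an adjusted p of 0.05 (0%), and none of the 86 had an unadjusted p under 0.05, where 0.29% of all genes were positive and 0.888% negative. The median interaction was 0.18, against 0.04 for all genes, with 63 of the 86 positive, where 56.7% of all genes were. The granulocyte genes were positive in 8 of 8 (median 1.35), the macrophage genes in 6 of 6 (median 0.74) and the erythroid genes in 6 of 6 (median 0.41), and their part was not tested. The median of the 86 was 0.060 without thymocytes TCDD 1 and 0.32 without thymocytes TCDD 2. The smallest p was that of Uqcr11, a small complex III subunit (0.67, SE 0.29, limma unadjusted p = 0.0594), and the next that of Cox7c (-0.81, limma unadjusted p = 0.0614).

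The arrays also differed by number. In thymocytes, 9 of the 86 genes differed by more than 1 log2 unit between the arrays numbered 1 and 2, and in emigrants 1 did. The share of all genes that did so was not counted, so these counts show no trait of the 86. Ndufs4, an accessory subunit of complex I, read 6.32 and 9.14 in TCDD thymocytes and 6.06 and 9.05 in oil thymocytes, against a range of 7.73 to 8.40 over the emigrant arrays. The 3′ minus 5′ actin signal was 4.31 and 4.12 on the thymocyte arrays numbered 1 and 3.06 and 3.12 on those numbered 2. Its part in these differences was not tested. Of 42 genes with another bright probe set, 13 gave a difference of opposite sign between the probe sets for emigrants against thymocytes, 13 for TCDD in thymocytes and 10 for TCDD in emigrants, so the values above hold for the probe sets named as brightest.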

How the data were processed

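Values were read from the authors' deposited log2 table, made with RMA per the submitters' processing notes (version and background settings not given in the sources used here). RMA corrects background, quantile-normalises the arrays and summarises probes on a log2 scale, so shifts shared by most genes are removed. Of 22690 probe sets, 20393 carry 1 symbol in the platform annotation, 691 several and 1606 none. Symbols were updated through gene IDs for 20364 of them. Only probe sets with 1 symbol were used, and the brightest by mean over 8 arrays stood for its gene, leaving 12394 genes. Arrays carry no read depth: precision is set by 2 arrays a group. limma 3.58.1 in R 4.3.3 fitted 4 group means to the 8 arrays together (4 residual degrees of freedom), for 6 comparisons, with eBayes and Benjamini-Hochberg adjustment over all genes at 0.05. Arrays do not overlap when every array of a group lies on 1 side of every array of the other. The limma step was tested on simulated data, with 200 genes changed and noise independent between arrays. For TCDD against oil in thymocytes it recovered 26% of changes of 1 log2 unit and 66% of changes of 2. For emigrants against thymocytes the shares were 62% and 89%. Unchanged genes called numbered 6 and 11, in that order. The real arrays shared differences by number within each source, which the simulation did not include. Alternatives covered renormalisation, centring, dim genes, probe sets, the eBayes prior, a replicate block, the treatment entry of emigrants oil 1 and each array left out.

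The genes named were a fixed set of main subunits, per complex those with the smallest p or the widest difference in each comparison, and from each pathway list up to 2 by p. A few others were named after their values were seen. Members and lists were chosen with earlier results of these data known.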

Additional observations from a re-analysis of the deposited data

Results flagged for a closer look

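For 2 genes every TCDD array lay on one side of every oil array in emigrants and on the opposite side in thymocytes. In emigrants, 14.6% of all genes were higher with TCDD without overlap and 10.1% lower. In thymocytes, 9.78% were higher and 11.4% lower. The share of all genes with opposite order in the 2 sources was not counted. The count of 2 therefore shows no trait of the oxidative phosphorylation genes. Atp5g1, a gene of the ATP synthase c subunit, read 7.42 and 7.11 with TCDD, against 7.07 and 6.98 with oil, in emigrants, and 7.91 and 7.90 with TCDD, against 8.58 and 7.95 with oil, in thymocytes. The difference of its TCDD effects was 0.60 log2 units (SE 0.33, limma interaction, unadjusted p = 0.117, adjusted p = 1.0). Uqcr11, a small subunit of complex III, read 7.44 and 7.62 with TCDD, against 6.90 and 7.35 with oil, in emigrants, and 7.09 and 7.38 with TCDD, against 7.41 and 7.57 with oil, in thymocytes. The difference of its TCDD effects was 0.67 (SE 0.29, limma interaction, unadjusted p = 0.0594, adjusted p = 1.0). Neither passed the correction over all genes.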

How the results depend on the processing

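For emigrants against thymocytes the count of genes past an adjusted p of 0.05, 0 in the main limma fit, was 1 (Atp5b) when only the brighter genes were tested, 1 (Atp5b) when emigrants oil 1 was counted as TCDD, 2 (Atp5b and Atp5g1) with the replicate block and 26 with the replicate block within each cell source, of which 25 were lower. That last block removes the difference between numbers from the spread in each source, so the sources are tested only against what TCDD and number leave. It gave 11 genes under oil, where 819 of all genes passed, and 4 under TCDD, where 462 of all genes passed. For the mean comparison it passed 1928 of all genes. The replicate block alone passed 200 of all genes for that comparison. Counting emigrants oil 1 as TCDD passed 75 of all genes, and testing only the brighter genes passed 96 of the brighter genes. The counts were not tested against those of all genes. The numbers mark nothing the labels state. In each group the array numbered 2 was subtracted from the array numbered 1, gene by gene. Over all genes this difference correlated between the TCDD and oil groups at 0.76 in thymocytes and 0.50 in emigrants. Across sources its correlations lay between -0.10 and 0.11. Over all alternatives the adjusted p of Atp5b ran from 0.0029 to 0.201, and its difference stayed negative.

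The median TCDD difference in emigrants was -0.066 and the median interaction 0.041 when emigrants oil 1 was counted as TCDD. With each array left out, the median ran from -0.19 to 0.029 for TCDD in thymocytes, -0.016 to 0.18 for TCDD in emigrants, -0.43 to -0.25 for emigrants against thymocytes under oil, -0.22 to -0.0052 under TCDD, -0.29 to -0.14 for their mean and 0.060 to 0.32 for the interaction. The count of genes past the threshold was 0 in each of these. A group that keeps a single array borrows its spread from the remaining groups. Fitting only the arrays compared was not run for the mean and the interaction, which use all 8. The cause of these changes was not tested.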
